A study of Mus musculus with 6 samples.

Results

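The genes described here encode the lysosome's hydrolases, several of its membrane proteins and the subunits of its proton pump, the V-ATPase. They were measured by RNA sequencing in RAW264.7 cells, a mouse macrophage-like line. Members were taken from the deposited gene table by name: 43 listed genes, plus 26 protein-coding rows whose symbol begins with Atp6v or Atp6ap, together 69 of 56748 genes. In 3 libraries the cells had been infected with a lentivirus carrying Fbxw11 (pMSCV-Fbxw11-pGk-GFP), and in the 3 control libraries with the control vector, in libraries named for GFP. All cells were grown in the same medium and sorted before RNA extraction. The sources used here do not give what the sort selected or what else the control vector holds. The labels do not say that the 3 libraries of a group are separate infections or cultures. The p-values therefore describe the spread among these 6 libraries alone, and that spread may be technical. Fbxw11 encodes an F-box protein that presents substrates to a ubiquitin ligase of the SCF type. The title of the series concerns its part in macrophage polarization.

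Lysosomes degrade proteins, glycans, nucleic acids and lipids that reach them by endocytosis, phagocytosis and autophagy, and macrophages are rich in them. Their hydrolases work at acidic pH, which the V-ATPase maintains: the peripheral V1 sector hydrolyses ATP and the membrane V0 sector moves protons. Many of these genes are known targets of TFEB and the related factors TFE3 and MITF, which bind a short palindromic element, CACGTG in its core, in their promoters. In osteoclasts, which arise from the same precursors as macrophages, the pump also acidifies the space under the cell.

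Reads recovered from the table numbered between 16191971 and 18951653 per library. Fbxw11 itself, as a check of the labels, stood at 36.1 ± 0.409 FPKM (fragments per kilobase of gene and per unit of library size, as scaled by the authors; SD, n = 3) in control and 271.3 ± 2.74 FPKM with Fbxw11, and reads of the vector and of the endogenous gene cannot be told apart. Control library 3 and Fbxw11 library 3 stood apart from the other 4 libraries on the second principal component, which held 23.7% of the variance, and counts are given also without them. Macrophage markers other than Mertk were abundant: the summed FPKM of 8 was 3667 to 3798 in control and 4081 to 4188 in Fbxw11 libraries. Of the 7 tested, Lyz2, Adgre1, Itgam and Fcgr1 rose, where 4.6% of all genes tested did. The calls were lost for Lyz2 under 13 and for Fcgr1 under 12 of 15 alternatives, and held throughout for Adgre1 and Itgam. Cd14 and Spi1 did not pass, with every Fbxw11 library above every control. Csf1r did not pass either, with every Fbxw11 library below every control. The untested Mertk had at most 1 read in any library. Markers of neutrophils, T cells, B cells, dendritic cells, fibroblasts, epithelium and endothelium summed to at most 5.66 FPKM in any library for any of these lists, with Ly6g and 3 more of the 5 neutrophil markers at 0 in all 6. Their part in the results below was not tested. In RNA from bulk cells, fewer cells of a type and less RNA per cell cannot be told apart.

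Of the 69 genes, 60 reached a mean of 1 FPKM over the 6 libraries and were tested with all 10898 genes that did. By limma with Benjamini-Hochberg adjustment over all of them at a threshold of 0.05, 6 members rose, higher in the Fbxw11 libraries: Atp6v0d1, Atp6v0a1, Atp6v0b, Atp6v1b2, Gla and Ctsl. The 3 that fell were Gpnmb, Cst3 and Arsb. The background over all genes was 9.24% called in either direction, 4.6% rising and 4.64% falling. Of the 60 members 10.0% rose and 5.0% fell, so that the share that fell was near the background. With each library rescaled to TPM, FPKM divided by its sum over the library, 3.19% of all genes rose and 6.53% fell, and the members gave 3.33% and 6.67%, both near the background. The changes were small. The largest log2 fold change among tested members was 0.31 in size, on the log2(FPKM + 1) scale used throughout.

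The tested members leaned towards higher values in the Fbxw11 libraries, and their median lay above that of all genes under each scaling. Of 60, 46 had a log2 fold change above 0, with a median of 0.06. Among all genes 50.9% were above 0 and the median was 0.003. On the TPM scale both medians were lower, at 0.02 for the members and -0.04 for all genes, and 35 of the 60 were above 0. With plain read sums the medians were 0.025 and -0.029. The groups did not overlap, with every Fbxw11 library above every control library, for 23 members (15.6% of all genes tested), and with every one below for 8 (15.5%). At an unadjusted p under 0.05 there were 26 of the 60 members, where 24.6% of all genes tested were.

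The choice of scaling and test also moved the calls. On the TPM scale 2 members rose, Atp6v0d1 and Atp6v0a1, and 4 fell, Gpnmb, Cst3, Arsb and Ctss. The split over all genes was 501 rising and 506 falling as deposited, 348 and 712 on the TPM scale, and 381 and 691 with plain read sums. With limma's voom on recovered reads 12 members rose and 4 fell, against 6.87% and 6.89% of all genes. Without library 3 of both groups 7 rose and 3 fell, against 3.33% and 3.07% of all genes: the call of Atp6v0b was lost, and Cd63 and Ctsz passed. Atp6v0d1, Atp6v0a1 and Gpnmb alone kept their calls under each of the 15 alternatives tried. Together the 69 genes made up 2.2 to 2.27% of all FPKM in every library.

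**Figure D1:**
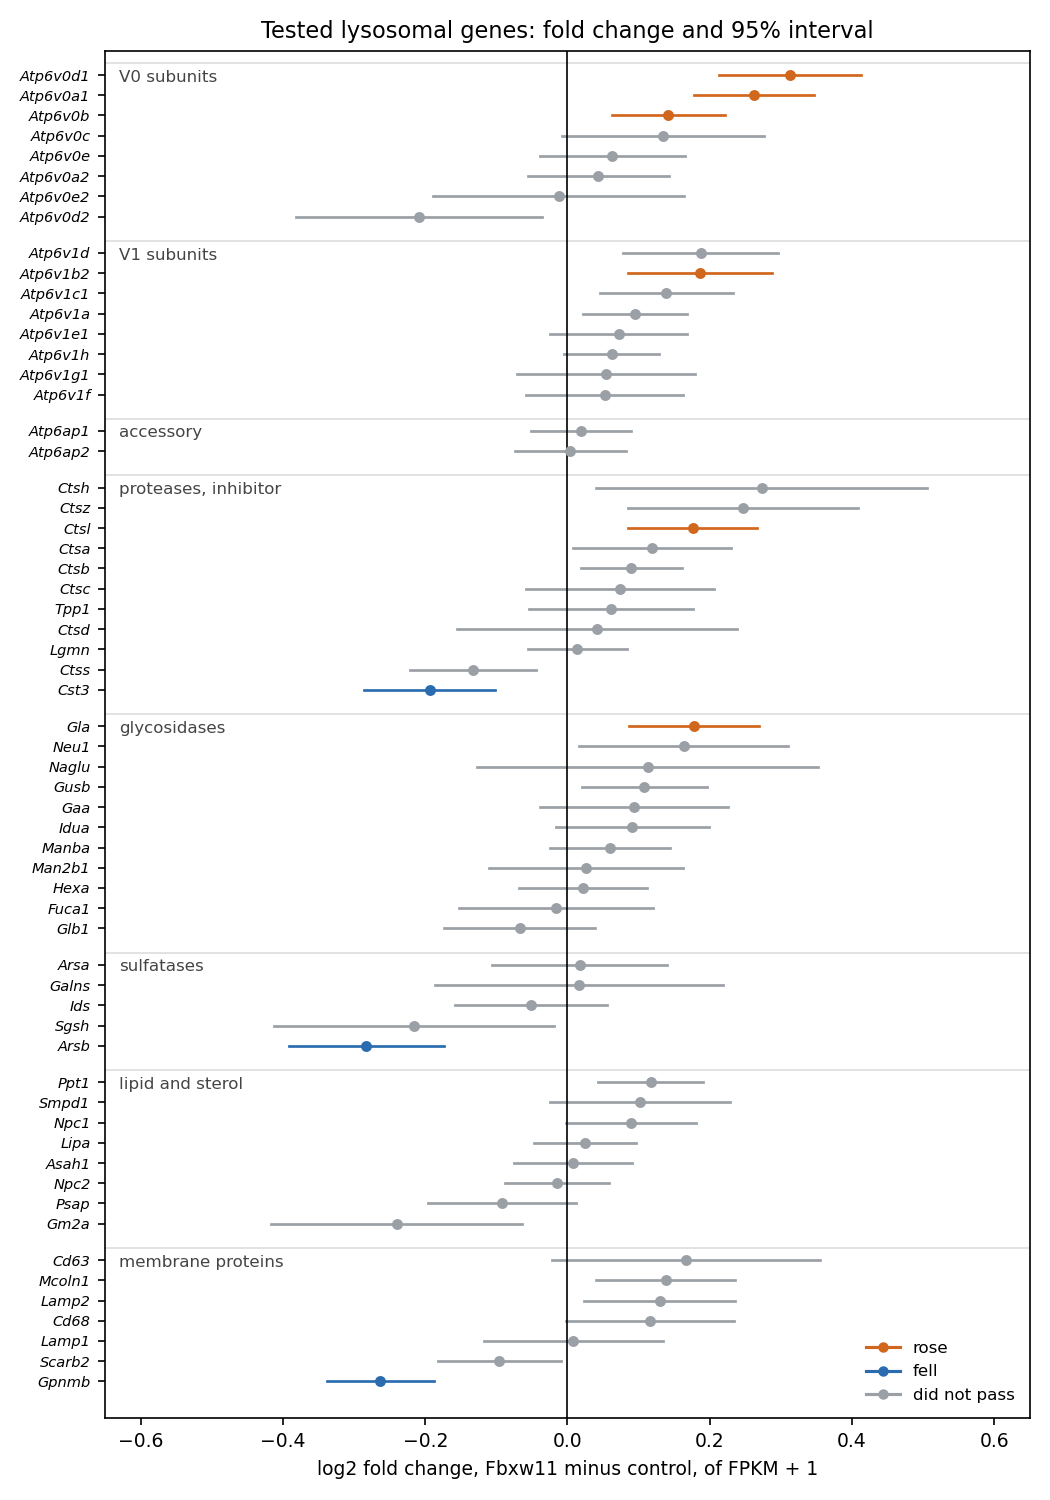
Log2 fold change, Fbxw11 minus control, of FPKM + 1 for the 60 tested lysosomal genes, grouped by role, with points for the estimate, lines for the 95% interval, and colour for genes that rose, fell or did not pass. Of the 60 points 46 lie above 0, and the 9 coloured ones lie between -0.28 and 0.31.

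Promoters were examined for the TFEB-type element. Whether members changed together was not tested. RefSeq promoter entries (build GRCm38.p6, 250 bases before to 50 after the annotated start) were matched by symbol for 57 of the 69 members and for 27025 genes in all. CACGTG, which reads the same on both strands, occurred in 16 of the 57 (28.1%) and in 8.09% of all genes with an entry. The longer TCACGTG, searched on both strands and always containing CACGTG, occurred in 15 of the 57 (26.3%) against 4.29%. TCATGTG, a related M-box searched on both strands, occurred in 7 of the 57 (12.3%) against 4.31%. A match is a description of these letters in this window and does not show that a factor binds there.

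The promoters of 4 genes are printed to set 2 genes that rose beside an abundant gene that did not pass and the gene that fell with the smallest adjusted p. CACGTG and TCATGTG matches are in capitals. That of Atp6v0d1 (chr8:105566015-105566314, minus strand) has 1 CACGTG, beginning 3 bases before the start. That of Gla (chrX:134600956-134601255, minus strand) has 2 CACGTG, beginning 227 and 194 bases before the start. A copy of the M-box lies between them, 211 bases before the start. That of Lamp1 (chr8:13158911-13159210, plus strand) has 4 within a short stretch, at 61, 45, 28 and 15 bases before the start. That of Gpnmb (chr6:49036268-49036567, plus strand) has neither motif. The promoter of Atp6v0a1, which rose and is not printed, has neither motif too.
Atp6v0d1: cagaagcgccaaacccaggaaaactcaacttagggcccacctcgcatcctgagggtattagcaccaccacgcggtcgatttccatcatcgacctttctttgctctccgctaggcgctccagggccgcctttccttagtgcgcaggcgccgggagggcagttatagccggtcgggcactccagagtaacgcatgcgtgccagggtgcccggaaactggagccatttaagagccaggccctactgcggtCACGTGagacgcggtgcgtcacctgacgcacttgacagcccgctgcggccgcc
Gla: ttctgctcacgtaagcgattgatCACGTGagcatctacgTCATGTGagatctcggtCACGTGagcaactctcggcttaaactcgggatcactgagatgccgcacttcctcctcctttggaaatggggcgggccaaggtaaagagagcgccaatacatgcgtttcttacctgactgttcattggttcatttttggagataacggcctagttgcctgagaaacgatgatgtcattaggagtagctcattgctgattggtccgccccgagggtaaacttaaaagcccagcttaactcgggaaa
Lamp1: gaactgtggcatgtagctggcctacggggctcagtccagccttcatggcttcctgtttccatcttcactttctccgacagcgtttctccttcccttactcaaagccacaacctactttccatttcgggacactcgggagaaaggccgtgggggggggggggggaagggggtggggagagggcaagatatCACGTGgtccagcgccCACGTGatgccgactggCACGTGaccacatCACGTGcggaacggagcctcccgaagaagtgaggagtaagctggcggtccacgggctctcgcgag
Gpnmb: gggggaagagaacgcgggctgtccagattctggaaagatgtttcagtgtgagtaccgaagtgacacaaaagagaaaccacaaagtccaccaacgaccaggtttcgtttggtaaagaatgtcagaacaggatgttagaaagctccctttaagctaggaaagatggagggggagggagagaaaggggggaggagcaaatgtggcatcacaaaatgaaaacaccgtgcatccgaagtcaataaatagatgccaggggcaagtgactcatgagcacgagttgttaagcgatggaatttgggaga

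CACGTG was present in 4 of the 5 members that rose and had an entry (Atp6v0d1, Atp6v0b, Gla and Ctsl, but not Atp6v0a1) and in 0 of the 3 that fell. The longer TCACGTG was present in 3 of the 5 and in 0 of the 3. The calls of Atp6v0b, Ctsl and Gla were lost under 13, 10 and 9 of the 15 alternatives. Of the rises that held under all of them, Atp6v0d1 has CACGTG and Atp6v0a1 does not. Of the 16 tested members with CACGTG, 14 had a log2 fold change above 0, with a median of 0.09. Of the 33 with an entry but without it, 22 did, with a median of 0.05. The difference between them was not tested. By role, 4 of 19 pump genes with an entry had it and 12 of the 38 others. Lamp1, with 4 copies, had a log2 fold change of 0.01 (95% interval -0.12 to 0.13).

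The V0 sector held the members that rose by the most. Of its 9 genes 8 were tested, and 3 rose and 0 fell, where 4.6% and 4.64% of all genes did. At an unadjusted p under 0.05 in either direction there were 4 (24.6% of all genes). Voom gave 3 and 0 as well, against 6.87% and 6.89% of all genes. On the TPM scale 2 rose, against 3.19% of all genes, and 2 rose with plain read sums. The median was 0.10 (0.06 on the TPM scale). The subunit genes differed among themselves, from Atp6v0d1 at 0.31 to Atp6v0d2 at -0.21.

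Atp6v0d1 encodes subunit d, which couples the central stalk to the proteolipid ring. Its level was 95.4, 101.7 and 101.8 FPKM in control libraries 1 to 3 and 124.4, 119.5 and 128.0 FPKM with Fbxw11 1 to 3, from 2814 to 3910 reads per library. All Fbxw11 libraries lay above all controls. The rise was 1.24-fold in mean FPKM, a log2 fold change of 0.31 (SE 0.0417, adjusted p = 0.00749, and 0.000281 to 0.0337 over the alternatives). The table places the gene on chromosome 8, from 106251097 to 106292679, without stating a build.

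Atp6v0a1 encodes an isoform of subunit a, the large subunit through which protons pass. It was at 35.4, 33.3 and 35.0 FPKM in the controls and 42.3, 41.0 and 41.7 FPKM with Fbxw11. The groups were well separated, at 34.6 ± 1.11 and 41.7 ± 0.609 FPKM. The log2 fold change was 0.26 (SE 0.0354, adjusted p = 0.00783, and 0.000369 to 0.0387 over the alternatives), a 1.21-fold rise. A long noncoding RNA on the same strand overlaps the gene, at no more than 2.25 FPKM in any library. The table places it on chromosome 11, from 100900278 to 100954545.

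Atp6v0b, a proteolipid subunit of the rotating ring, was at 87.5, 88.9 and 89.4 FPKM in the controls and 101.2, 95.8 and 96.5 FPKM with Fbxw11. The groups lay close without overlapping, and the log2 fold change was 0.14 (SE 0.0333, adjusted p = 0.0478). This call was lost under 13 of the 15 alternatives, with any single library left out among them (adjusted p 0.0696 to 0.161). The other proteolipid gene, Atp6v0c, stood at 49.4 ± 3.29 FPKM in the controls and 54.3 ± 2.79 FPKM with Fbxw11, with groups that overlapped. Processed pseudogenes of Atp6v0c are known, and the sources used here do not say how shared reads were counted.

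Subunit d has a second gene, Atp6v0d2, known for its high level in osteoclasts and also present in macrophages. It was at 9.78, 10.3 and 9.58 FPKM in the controls and 9.22, 7.51 and 8.60 FPKM with Fbxw11. All Fbxw11 libraries lay below all controls, but the gene did not pass (log2 fold change -0.21, 95% interval -0.38 to -0.04, adjusted p = 0.137). As a share of the FPKM of both d genes, Atp6v0d2 made up 9.3, 9.2 and 8.6% in control and 6.9, 5.91 and 6.3% in Fbxw11 libraries. The shares did not overlap, at 9.03% ± 0.378 and 6.37% ± 0.5. They are given as a description, since 3 libraries against 3 leave an exact permutation test no p below 0.1.

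Subunit a is encoded by 4 genes, of which Tcirg1 (the a3 subunit) does not carry the Atp6 name and is not a member. Tcirg1 was the most abundant, at 122.4 ± 5.58 FPKM in the controls and 122.0 ± 6.19 FPKM with Fbxw11 (log2 fold change -0.00, 95% interval -0.13 to 0.12, adjusted p = 0.969). Atp6v0a2 stood at 8.38 ± 0.283 and 8.66 ± 0.213 FPKM, and Atp6v0a4 was at 0 in all 6 libraries. Among the 3 expressed genes Atp6v0a1 made up 22.0, 20.4 and 20.4% in control and 24.2, 24.9 and 23.5% in Fbxw11 libraries. The small subunit e is encoded by Atp6v0e, at 34.8 and 36.4 FPKM in the controls and Fbxw11 libraries, and by the scarcer Atp6v0e2, at 6.28 and 6.21 FPKM. Neither passed.

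**Figure D2:**
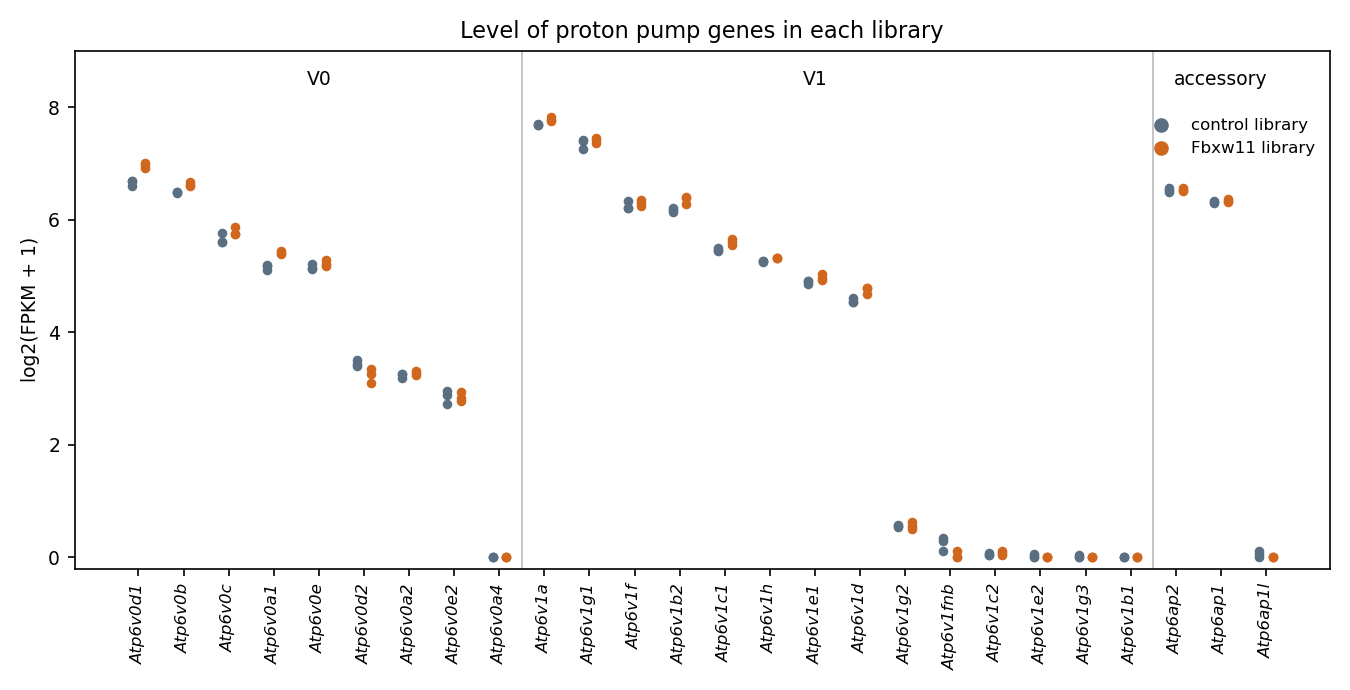
Level of each of the 26 genes with a proton pump symbol as log2(FPKM + 1) in every library, control and Fbxw11 libraries side by side, grouped into V0, V1 and accessory genes. The 18 tested genes lie above 2 on this axis, the other 8 lie below 1, and Atp6v0d1 and Atp6v0a1 show Fbxw11 libraries clear of the controls.

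All 8 tested genes of the V1 sector had higher means in the Fbxw11 libraries, also on the TPM scale and with plain read sums. Only 1 of them rose, where 4.6% of all genes did. In 6 of the 8 every Fbxw11 library lay above every control, where 15.6% of all genes tested did so. The median log2 fold change was 0.08 (0.04 on the TPM scale) and 4 were at an unadjusted p under 0.05 (24.6% of all genes). Voom called 3 as rising, adding Atp6v1c1 and Atp6v1d, where it called 6.87% of all genes as rising. On the TPM scale and with plain read sums 0 of the V1 genes rose.

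Atp6v1b2 encodes the noncatalytic subunit B of the ATP-splitting head. It was at 70.8, 68.9 and 72.9 FPKM in the controls and 83.4, 82.0 and 76.9 FPKM with Fbxw11. Fbxw11 library 3 lay nearest to the controls. The log2 fold change was 0.19 (SE 0.0422, adjusted p = 0.0429). The call was lost under 10 alternatives, among them each control library and Fbxw11 libraries 1 and 2 left out in turn (adjusted p 0.0622 to 0.151), and it held without Fbxw11 library 3.

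Atp6v1a, the catalytic subunit A and the most abundant pump gene, was at 206.7, 205.0 and 205.0 FPKM in the controls and 218.2, 225.4 and 215.4 FPKM with Fbxw11. The groups did not overlap, yet it did not pass (log2 fold change 0.09, SE 0.0305, adjusted p = 0.114). Atp6v1d, of the rotor shaft, stood at 22.6 ± 0.751 and 25.9 ± 1.18 FPKM (log2 fold change 0.19, adjusted p = 0.0527), and passed without Fbxw11 library 1 (adjusted p = 0.0452, and 0.0145 to 0.173 over the alternatives). Atp6v1c1, which joins the stalks of the 2 sectors, stood at 43.1 ± 0.75 and 47.6 ± 1.93 FPKM (log2 fold change 0.14, adjusted p = 0.0809), and passed without Fbxw11 library 3 (adjusted p = 0.0497, and 0.0300 to 0.234 over the alternatives). The remaining tested genes were Atp6v1g1 at 162.6 and 168.8 FPKM, Atp6v1f at 74.9 and 77.7 FPKM, Atp6v1h at 37.3 and 39.0 FPKM and Atp6v1e1 at 28.8 and 30.4 FPKM in the controls and Fbxw11 libraries.

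The tissue-restricted isoforms of V1 were near 0. Atp6v1b1, known from kidney and inner ear, had no read in any library, which allows at most 3 reads per library. Atp6v1e2, Atp6v1g3 and Atp6v1c2 had at most 3 reads in any library, and Atp6v1g2, a neuronal isoform, stood at 0.477 and 0.474 FPKM. Atp6v1fnb, which was caught by the name rule but is a neighbour of Atp6v1f and not a pump subunit, had 0 to 3 reads. None of the 6 was tested.

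Of the accessory genes, Atp6ap2, the prorenin receptor, and Atp6ap1 were tested, and neither rose nor fell by limma or by voom, with 0 of 2 at an unadjusted p under 0.05. Atp6ap2 was at 93.3, 89.3 and 91.3 FPKM in the controls and 91.5, 93.4 and 89.7 FPKM with Fbxw11. Its log2 fold change was 0.00 (95% interval -0.07 to 0.08, adjusted p = 0.955), and its sign turned on the TPM scale. Atp6ap1 stood at 78.8 ± 1.02 and 79.9 ± 1.31 FPKM. Atp6ap1l had at most 2 reads in a library.

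**Figure D3:**
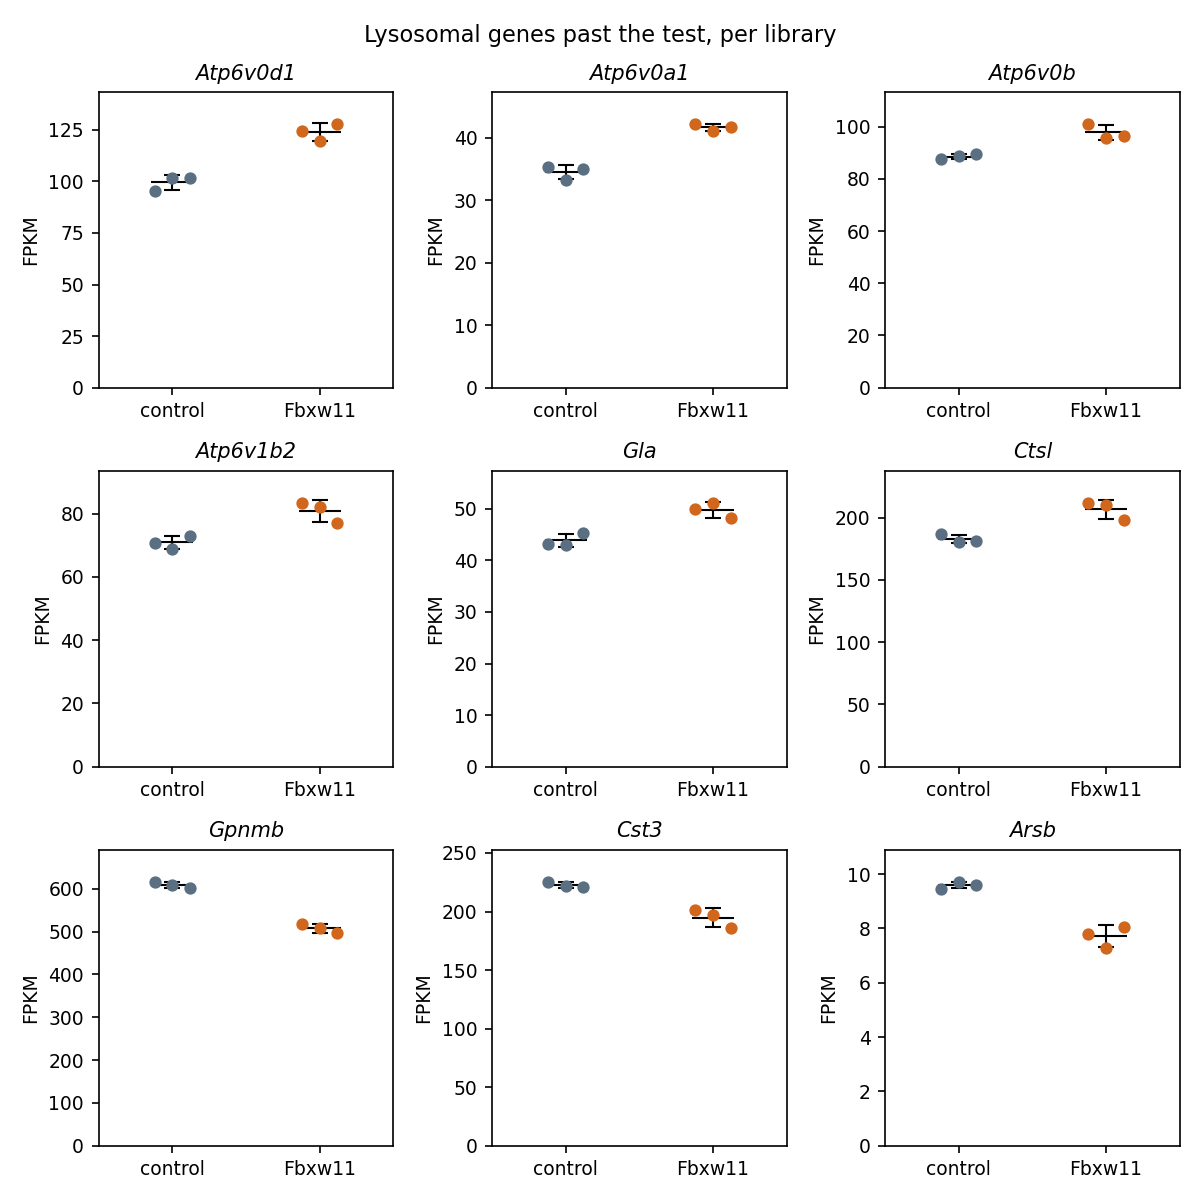
FPKM of the 9 lysosomal genes past the test in each of the 6 libraries, with points for libraries and bars for mean ± SD (n = 3), on axes that start at 0. In every panel the control and Fbxw11 libraries do not overlap, and the mean ratios lie between 1.10-fold and 1.24-fold in either direction.

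Among 11 proteases, peptidases and their inhibitor, 1 rose and 1 fell (4.6% and 4.64% of all genes). Their median log2 fold change was 0.07, and 9 were higher in the Fbxw11 libraries (7 on the TPM scale). The cathepsins are the lysosome's main proteases. Ctsl, the endopeptidase cathepsin L, was at 186.6, 180.5 and 181.3 FPKM in the controls and 212.0, 210.5 and 197.9 FPKM with Fbxw11. The lowest Fbxw11 library lay above the highest control, and the rise was 1.13-fold (log2 fold change 0.18, SE 0.0377, adjusted p = 0.0350). The call was lost under 10 alternatives, among them each control library and Fbxw11 libraries 1 and 2 left out in turn (adjusted p 0.0895 to 0.136).

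Cst3 encodes cystatin C, a secreted inhibitor of cysteine cathepsins. It was at 225.5, 221.9 and 221.1 FPKM in the controls and 201.3, 197.4 and 185.8 FPKM with Fbxw11. The gene fell by 0.19 on the log2 scale (SE 0.0383, adjusted p = 0.0274), with all Fbxw11 libraries below all controls. This call was lost under 7 alternatives, among them each control library and Fbxw11 library 2 left out in turn (adjusted p 0.0628 to 0.109).

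Ctsb, cathepsin B, was the most abundant member. It stood at 722.6, 727.5 and 730.8 FPKM in the controls and 780.1, 778.6 and 762.8 FPKM with Fbxw11, from 71903 to 84624 reads per library. The 2 groups stood apart, but the log2 fold change of 0.09 did not pass (SE 0.0297, adjusted p = 0.122); with voom it did (adjusted p = 0.0309, and 0.0309 to 0.529 over the alternatives). Ctsz, the carboxypeptidase cathepsin Z, showed a larger and less even difference, at 605.7, 588.8 and 598.2 FPKM in the controls and 782.1, 703.8 and 648.3 FPKM with Fbxw11. It did not pass (log2 fold change 0.25, adjusted p = 0.0751), did so without Fbxw11 library 3 (0.31, adjusted p = 0.0278) and without library 3 of both groups (0.31, adjusted p = 0.0426), and ranged from 0.00722 to 0.251 over the alternatives.

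Ctss, cathepsin S, which trims the invariant chain of MHC class II, lay on the other side. It was at 228.0, 235.6 and 218.7 FPKM in the controls and 210.0, 203.8 and 208.1 FPKM with Fbxw11. The groups did not overlap and the gene did not pass (log2 fold change -0.13, SE 0.0371, adjusted p = 0.0803), but it fell on the TPM scale (adjusted p = 0.0264), with plain read sums (adjusted p = 0.0353) and by voom (adjusted p = 0.0339; 0.0264 to 0.240 over the alternatives). Ctsd, the aspartic protease cathepsin D, varied more within groups than between them, at 379.5, 402.3 and 441.8 FPKM in the controls and 407.7, 388.7 and 464.6 FPKM with Fbxw11, with library 3 highest in both. Ctsh, cathepsin H, was the scarcest protease at 1.09 ± 0.24 and 1.52 ± 0.0292 FPKM, from 69 to 123 reads (adjusted p = 0.146). The remaining tested genes were Ctsa at 135.7 and 147.5 FPKM, Lgmn at 82.6 and 83.4 FPKM, Tpp1 at 42.1 and 44.0 FPKM and Ctsc at 14.5 and 15.3 FPKM in the controls and Fbxw11 libraries.

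Of 11 glycosidases, which remove sugars from glycoproteins, glycolipids and glycosaminoglycans, 1 rose and 0 fell (4.6% and 4.64% of all genes). Their median was 0.09, and 9 were higher in the Fbxw11 libraries (7 on the TPM scale). Gla, alpha-galactosidase A, lacking in Fabry disease, was at 43.2, 43.0 and 45.4 FPKM in the controls and 49.9, 51.2 and 48.2 FPKM with Fbxw11. The groups did not overlap. The rise was 1.13-fold (log2 fold change 0.18, SE 0.0382, adjusted p = 0.0352), and the call was lost under 9 alternatives, among them libraries 1 and 2 of either group left out in turn (adjusted p 0.0997 to 0.136).

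Gusb, beta-glucuronidase, was the most abundant glycosidase, at 135.2, 132.7 and 138.2 FPKM in the controls and 150.2, 147.3 and 140.5 FPKM with Fbxw11. Between the groups there was no overlap and the gene did not pass (log2 fold change 0.11, adjusted p = 0.129). Neu1, the lysosomal sialidase, stood at 18.2 ± 0.668 and 20.5 ± 1.65 FPKM, with Fbxw11 library 1 the highest at 22.4 (adjusted p = 0.167). Hexa, whose product forms hexosaminidase A, stood at 94.7 and 96.2 FPKM in the controls and Fbxw11 libraries and the acid alpha-glucosidase gene Gaa at 34.4 and 36.8 FPKM. Naglu, Manba, Glb1, Fuca1, Idua and Man2b1 had means between 5.47 and 22.9 FPKM, and the 2 with a lower mean in the Fbxw11 libraries were Fuca1 (14.9 and 14.7 FPKM) and Glb1 (20.3 and 19.3 FPKM).

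The 5 sulfatases, which strip sulfate from glycosaminoglycans and sulfolipids, were among the scarcer members. Of the 5, 1 fell and 0 rose, against 4.64% and 4.6% of all genes. Voom gave the same counts, against 6.89% and 6.87% of all genes. At an unadjusted p under 0.05 there were 2 of 5, against 24.6% of all genes. The median of the sulfatases was -0.05 (-0.10 on the TPM scale). Arsb, which removes sulfate from dermatan and chondroitin sulfate, was at 9.47, 9.72 and 9.60 FPKM in the controls and 7.81, 7.28 and 8.06 FPKM with Fbxw11. All Fbxw11 libraries lay well below all controls. The fall was 1.24-fold (log2 fold change -0.28, SE 0.0456, adjusted p = 0.0137), and the call was lost with control library 1 left out (adjusted p = 0.0526) or control library 2 left out (adjusted p = 0.0675).

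Sgsh, which acts on heparan sulfate, stood at 3.23 ± 0.244 and 2.65 ± 0.32 FPKM with overlapping groups (log2 fold change -0.22, adjusted p = 0.172). Galns, the most abundant sulfatase, ranged from 11.4 to 14.6 FPKM in the controls and from 12.6 to 13.8 FPKM with Fbxw11 (log2 fold change 0.02, 95% interval -0.19 to 0.22, adjusted p = 0.931). Its sign turned on the TPM scale. Ids stood at 4.66 and 4.46 FPKM and Arsa at 4.62 and 4.69 FPKM.

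Of 8 genes for lipid breakdown, sphingolipid activators and cholesterol export, 0 rose and 0 fell (2 at an unadjusted p under 0.05, near the 24.6% of all genes). Voom called 1 as rising, Ppt1, where it called 6.87% of all genes as rising. The median of the 8 genes was 0.02, and 5 were higher (3 on the TPM scale). Psap, the precursor of the saposins, was the most abundant, at 301.9, 310.4 and 297.9 FPKM in the controls and 296.2, 288.4 and 269.6 FPKM with Fbxw11. Every Fbxw11 library lay below every control, without passing (log2 fold change -0.09, 95% interval -0.20 to 0.01, adjusted p = 0.249).

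Gm2a, the activator of GM2 ganglioside breakdown, was at 4.61, 5.17 and 4.57 FPKM in the controls and 3.84, 3.56 and 4.31 FPKM with Fbxw11. The groups did not overlap (log2 fold change -0.24, adjusted p = 0.101). Ppt1, a palmitoyl-protein thioesterase, stood at 86.3 ± 1.4 and 93.7 ± 1.88 FPKM (log2 fold change 0.12, adjusted p = 0.0685, and 0.0392 with voom, in a range of 0.0392 to 0.198). Cap1 overlaps Ppt1 on the opposite strand at up to 265.7 FPKM, and the sources used here do not say whether strand was used in counting, so the value of Ppt1 is uncertain. The cholesterol carriers Npc1 and Npc2 stood at 20.8 and 22.2 FPKM and at 90.2 and 89.3 FPKM in the controls and Fbxw11 libraries. Lipa, Asah1 and Smpd1, for acid lipase, ceramidase and sphingomyelinase, stood at 31.9 and 32.4, at 51.3 and 51.6, and at 7.50 and 8.12 FPKM.

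Of 7 membrane proteins, 0 rose and 1 fell (4.6% and 4.64% of all genes). Their median was 0.12, and 5 had higher means in the Fbxw11 libraries (4 on the TPM scale). Gpnmb, a glycoprotein of lysosomes and phagosomes known as a MITF target, was at 616.4, 608.5 and 602.2 FPKM in the controls and 517.5, 507.5 and 497.4 FPKM with Fbxw11. The lowest control library lay well above the highest Fbxw11 library. The fall was 1.20-fold (log2 fold change -0.26, SE 0.0314, adjusted p = 0.00509, and 3.5e-05 to 0.0494 over the alternatives). It was the member with the smallest adjusted p. The table places the gene on chromosome 6, from 49013480 to 49047863.

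Lamp1 and Lamp2 encode the glycoproteins that line the lysosomal membrane. Lamp1 was at 268.4, 276.4 and 278.0 FPKM in the controls and 261.1, 270.1 and 297.5 FPKM with Fbxw11, which span the controls (adjusted p = 0.943). Without Fbxw11 library 3 its log2 fold change of 0.01 became -0.05. Lamp2 stood at 45.0 ± 1.1 and 49.4 ± 2.49 FPKM with groups that did not overlap (log2 fold change 0.13, adjusted p = 0.132, and 0.0463 with voom, in a range of 0.0463 to 0.281).

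Cd68, the macrophage glycoprotein macrosialin, was at 529.7, 573.1 and 549.3 FPKM in the controls and 590.5, 571.1 and 629.9 FPKM with Fbxw11. The groups overlapped (log2 fold change 0.12, 95% interval -0.00 to 0.23, adjusted p = 0.212). Cd63, a tetraspanin of late endosomes, was at 84.4, 78.9 and 83.5 FPKM in the controls and 100.7, 96.2 and 81.7 FPKM with Fbxw11. Fbxw11 library 3 lay among the controls: with all libraries the gene did not pass (log2 fold change 0.17, adjusted p = 0.250), and without that library it did (0.26, adjusted p = 0.0315, and 0.0315 to 0.492 over the alternatives). Mcoln1, the calcium channel TRPML1, stood at 10.2 ± 0.26 and 11.3 ± 0.395 FPKM (adjusted p = 0.0924), and Scarb2, the receptor that delivers glucocerebrosidase, at 9.58 ± 0.239 and 8.90 ± 0.0348 FPKM (adjusted p = 0.168).

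Tfeb, the regulator on the list, was too low to test. It was at 0.257, 0.367 and 0.458 FPKM in the controls and 0.173, 0.257 and 0.259 FPKM with Fbxw11, from 16 to 44 reads, and the groups overlapped. Of the related factors, Tfec was below the filter too, and Tfe3 and Mitf were tested. Neither passed by limma or voom, and 1 of 2 was at an unadjusted p under 0.05 (24.6% of all genes). Tfe3 was at 8.73, 9.48 and 9.16 FPKM in the controls and 10.1, 9.82 and 10.6 FPKM with Fbxw11 (log2 fold change 0.14, 95% interval 0.03 to 0.25, adjusted p = 0.120). Mitf stood at 6.71 ± 0.383 and 6.78 ± 0.243 FPKM (log2 fold change 0.01, 95% interval -0.11 to 0.14, adjusted p = 0.910).

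Other genes of lysosome biology, on 7 lists that do not include the members, gave 6 rising and 3 falling of 75 tested, with a median of 0.04. That is 8.0% and 4.0%, against 4.6% and 4.64% of all genes tested. On the TPM scale 6.67% rose and 5.33% fell, against 3.19% and 6.53% of all genes. Slc15a3, a lysosomal transporter of peptides and histidine, stood out. It was at 122.0, 118.6 and 128.6 FPKM in the controls and 193.3, 183.8 and 182.2 FPKM with Fbxw11, a 1.51-fold rise (log2 fold change 0.60, SE 0.0425, adjusted p = 0.00102). Its log2 fold change was larger than that of any of the 60 tested members. Hgsnat, the membrane acetyltransferase of heparan sulfate breakdown, rose from 37.1 ± 0.998 FPKM in the controls to 45.9 ± 1.75 FPKM with Fbxw11 (log2 fold change 0.30, adjusted p = 0.00775). Both calls held under all alternatives.

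Of 11 tested genes that signal amino acid supply at the lysosome, 2 rose and 0 fell, against 4.6% and 4.64% of all genes. At an unadjusted p under 0.05 there were 4 (24.6% of all genes). Voom gave 3 and 0, against 6.87% and 6.89% of all genes, and on the TPM scale 1 rose, against 3.19%. Flcn, folliculin, a GTPase-activating protein for RagC and RagD, rose from 16.0 ± 0.763 FPKM in the controls to 19.2 ± 0.566 FPKM with Fbxw11 (log2 fold change 0.25, adjusted p = 0.0204). This call was lost under 5 alternatives, among them control library 1 or 2 or Fbxw11 library 1 or 2 left out (adjusted p 0.0689 to 0.0835). Rraga, the GTPase RagA, rose from 43.5 ± 0.317 FPKM in the controls to 49.4 ± 1.65 FPKM with Fbxw11 (log2 fold change 0.18, adjusted p = 0.0257), and this call was lost under 8 alternatives, among them every single library left out except Fbxw11 library 2 (adjusted p 0.0528 to 0.105). Of 8 genes of pump assembly and regulation 1 rose and 0 fell (4.6% and 4.64% of all genes). Wdr7, a partner of the rabconnectins, rose from 6.35 ± 0.0716 FPKM in the controls to 7.64 ± 0.161 FPKM with Fbxw11 (log2 fold change 0.23, adjusted p = 0.0136). Its call was lost under 5 of the 15 alternatives, with adjusted p up to 0.0733. Among them were control library 1, control library 2 and Fbxw11 library 2 left out in turn (adjusted p 0.0556 to 0.0693).

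Of 23 other membrane and luminal proteins 2 rose, Slc15a3 among them, and 1 fell (8.7% and 4.35%, against 4.6% and 4.64% of all genes). Tpcn1, a cation channel, fell from 4.26 ± 0.02 FPKM in the controls to 3.51 ± 0.181 FPKM with Fbxw11 (adjusted p = 0.0387). This call was lost under 9 alternatives, among them any single library left out (adjusted p 0.0582 to 0.131). Of 6 genes of mannose 6-phosphate sorting, 0 passed, with 2 at an unadjusted p under 0.05, and voom called 1. Likewise 0 of 3 cysteine protease inhibitors other than Cst3 passed, with 1 at an unadjusted p under 0.05 and 0 with voom. Of all genes tested 24.6% were at an unadjusted p under 0.05, and voom called 6.87% as rising and 6.89% as falling.

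**Figure D4:**
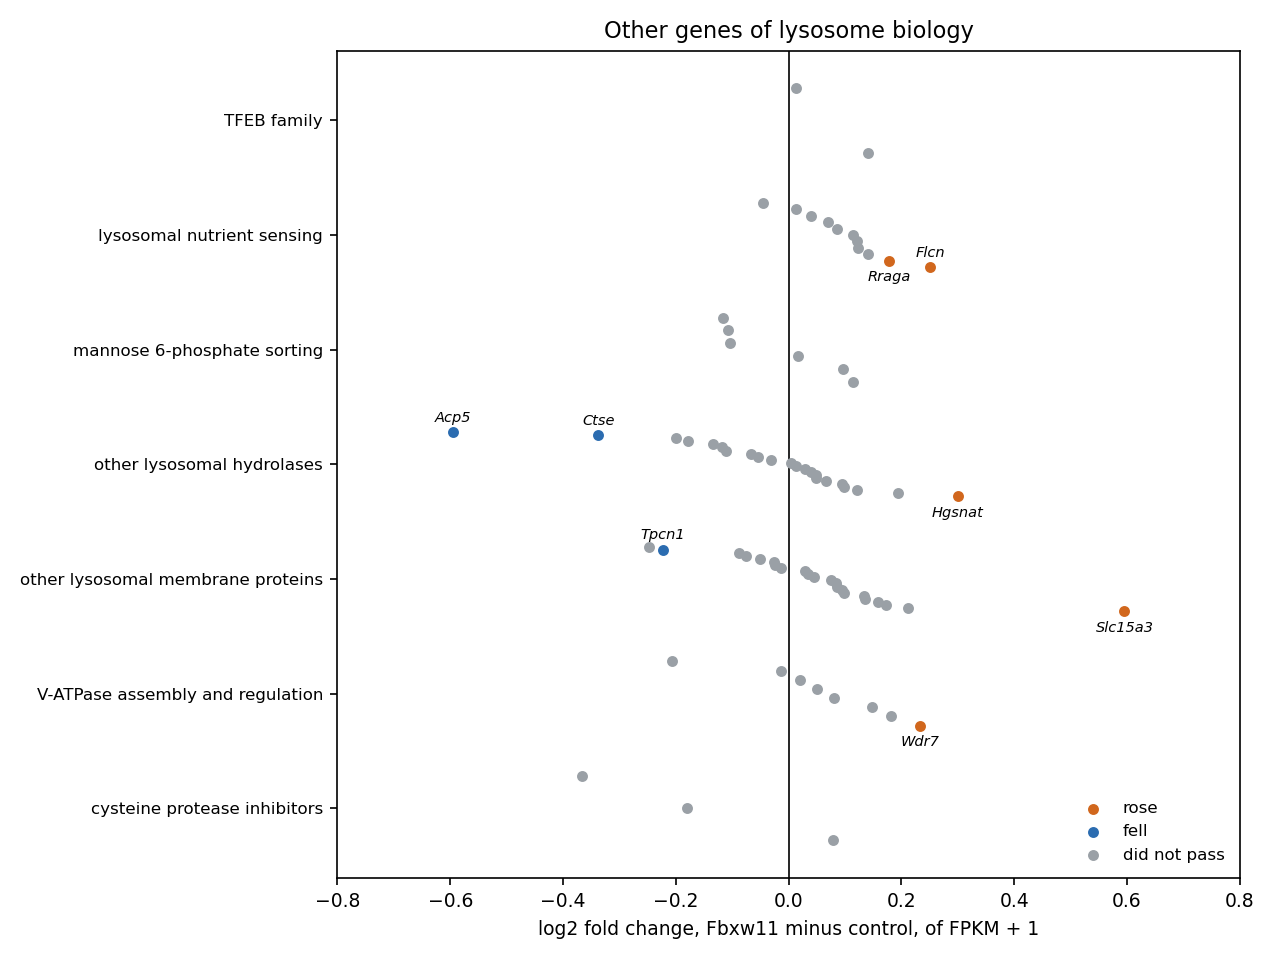
Log2 fold change, Fbxw11 minus control, of FPKM + 1 for 74 of the 75 tested genes of 7 other lysosome lists, 1 point per gene within each list, coloured where the gene rose or fell. The 5 rises and 3 falls drawn are labelled, with Slc15a3 at 0.60 and Acp5 at -0.60 the farthest from 0.

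The other hydrolases gave 1 rise, Hgsnat, and 2 falls, Acp5 and Ctse, of 22 tested (4.55% and 9.09%, against 4.6% and 4.64% of all genes). Acp5, tartrate-resistant acid phosphatase and a marker of osteoclasts, was at 7.46, 7.23 and 8.28 FPKM in the controls and 4.99, 4.08 and 5.15 FPKM with Fbxw11. The fall was 1.61-fold (log2 fold change -0.60, SE 0.0863, adjusted p = 0.00961). Ctse, the intracellular aspartic protease cathepsin E, fell from 4.43 ± 0.183 FPKM in the controls to 3.31 ± 0.438 FPKM with Fbxw11 (adjusted p = 0.0485). This call was lost under 9 alternatives, among them any single library left out except Fbxw11 library 2 (adjusted p 0.0980 to 0.152).

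Atp6v0d2 and Acp5 are both on the list of 8 osteoclast markers, whose summed FPKM was 123.6 to 127.6 in control and 108.2 to 114.6 in Fbxw11 libraries. Of the 6 tested, 2 fell, Acp5 and Nfatc1, where 4.64% of all genes tested fell. The untested Ocstamp and Calcr had at most 2 reads and 1 read in any library. Dcstamp stood at 20.1 and 19.3 FPKM in the controls and Fbxw11 libraries, with overlapping groups (adjusted p = 0.545). Nfatc1, the transcription factor that directs osteoclast formation, was at 10.7, 12.2 and 12.1 FPKM in the controls and 7.07, 7.08 and 8.12 FPKM with Fbxw11 (log2 fold change -0.59, SE 0.0721, adjusted p = 0.00565). Ctsk, the collagen-degrading cathepsin K, stood at 4.76 ± 0.247 and 4.31 ± 0.137 FPKM with groups that did not overlap (adjusted p = 0.216). Mmp9, a matrix metalloprotease and the most abundant of these markers, was at 70.7, 71.0 and 72.2 FPKM in the controls and 68.3, 65.9 and 69.2 FPKM with Fbxw11, again without overlap and without passing (log2 fold change -0.07, adjusted p = 0.231). The part of these markers in the values of Atp6v0d2, and that of the macrophage markers Adgre1 (55.0 ± 1.33 and 80.5 ± 2.34 FPKM, adjusted p = 0.00088) and Itgam (19.8 ± 0.746 and 27.9 ± 1.22 FPKM, adjusted p = 0.00274) in the lysosomal rises, was not tested.

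**Figure D5:**
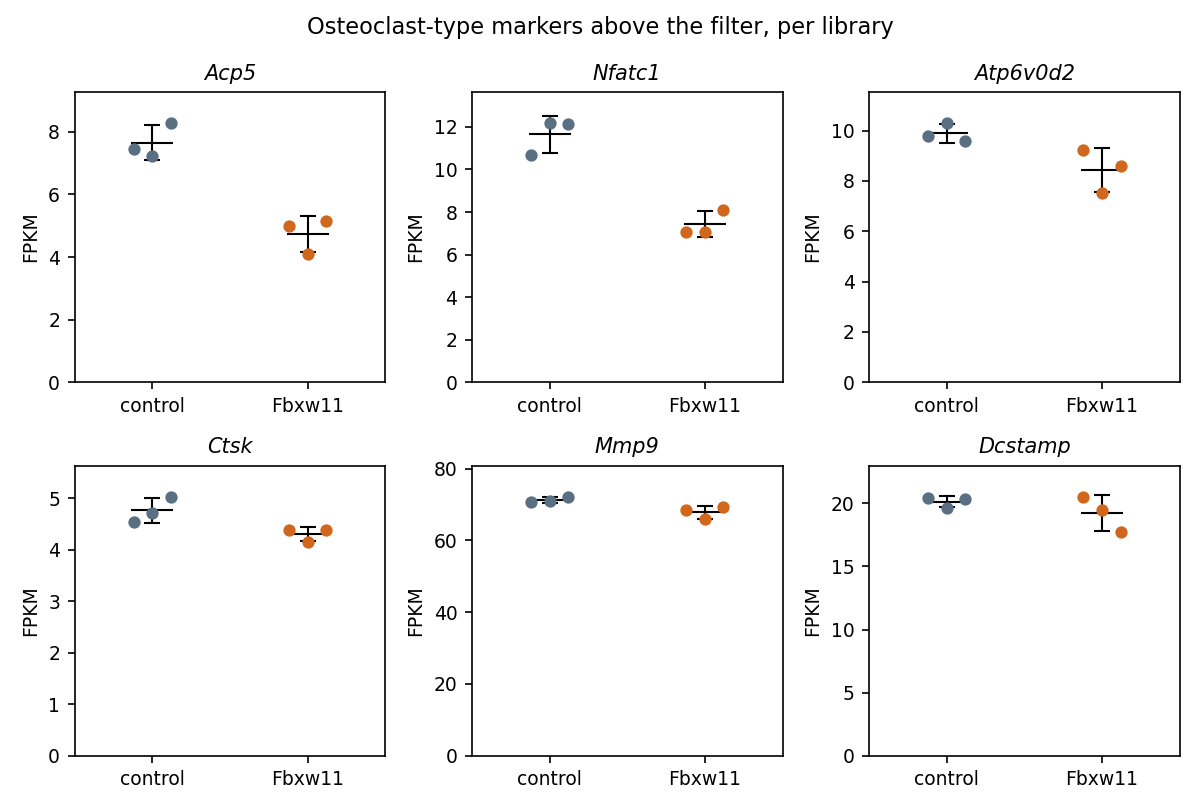
FPKM of the 6 tested osteoclast markers in each library, with points for libraries and bars for mean ± SD (n = 3), on axes that start at 0. Acp5 and Nfatc1 fell, and in Atp6v0d2, Ctsk and Mmp9 the Fbxw11 libraries lie below the controls without passing the test. In Dcstamp the groups overlap.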

How the data were processed

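RNA was measured in 3 control and 3 Fbxw11 libraries, grouped by the labels. The authors deposited FPKM per gene, fragments per length of gene and per size of library. Per the submitters' processing notes the build is mm10. The sources used here do not give the aligner, counter or annotation. The start and end of 2.76% of nuclear genes matched a GENCODE annotation of that build, while 96.8% had the same span, so coordinates from the file are printed with their build not stated. Multiplied by gene length, every deposited FPKM value was a whole number of steps per library (within 0.02), which gave reads per gene. The authors' divisor for library size was 1.014 to 1.018 times the sum of reads in control and 0.987 to 0.993 times in Fbxw11 libraries, which raises FPKM in the latter relative to plain sums.

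Values were tested as log2(FPKM + 1) for genes whose mean reached 1 FPKM, with limma 3.58.1 in R 4.3.3 (lmFit, eBayes with trend, two-sided, no covariate), adjusted by Benjamini-Hochberg over 10898 genes. Intervals are 95%. The log2 scale with a pseudocount of 1 understates changes of low genes. The procedure was tested on simulated data in which every planted change was larger than those of the members past the threshold. Its recovery of changes as small as theirs was not tested. Alternatives were a pseudocount of 0.1, no filter, TPM, plain read sums, median ratio scaling, no trend, voom on recovered reads, each library left out, and the replicate number as a block; leaving out library 3 of both groups was added after the data were seen. Within groups, read counts of library pairs gave chi-square values of 2.34 to 5.43 per degree of freedom, above sampling noise. Each library was counted as a sample, but these values do not show that the libraries are separate infections or cultures.

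The members and lists were chosen with earlier results of these data known. Given in full are members past the threshold, the most abundant of each role, and Tfeb, Lamp1 and Cd68. Of the other lists, up to 4 genes past the threshold each are named. One gene that this rule names is counted but not reported here. Further members given with each library's value, Tcirg1, and the markers Nfatc1, Ctsk, Mmp9, Adgre1 and Itgam, were chosen after their values were seen. Promoters came from a RefSeq table, matched by symbol.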

Additional observations from a re-analysis of the deposited data

How the results depend on the processing

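Against 6 rises and 3 falls among the members, 2 rose with no filter on low values, on the TPM scale, with plain read sums and without the mean-variance trend, and 12 rose with voom. With single libraries left out 2 to 8 rose and 1 to 3 fell, the fewest falls without control library 1 or 2. Over all genes, 1007 passed, 596 with no filter and 410 to 801 with single libraries left out. On the other lists, against 6 rises and 3 falls, voom gave 10 and 6, where it called 6.87% and 6.89% of all genes. No filter gave 1 fall there, and single libraries left out gave 2 to 6 rises and 1 to 2 falls. Of the genes given with a test, 6 changed sign under some alternative, each with a log2 fold change near 0. Atp6ap2 was at -0.039 on the TPM scale, -0.033 with plain sums and -0.012 to 0.019 with single libraries left out. Lamp1 was at -0.035, -0.029, -0.046 to 0.048 and, without library 3 of both groups, -0.037. Galns was at -0.024, -0.018 and -0.070 to 0.094. Ctsd was at -0.0012 on the TPM scale and -0.032 to 0.10 with single libraries left out. Mitf was at -0.027, -0.020, -0.010 to 0.054 and, without library 3 of both groups, -0.031. Tcirg1 was at -0.036 to 0.036 with single libraries left out. The causes were not tested.

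Libraries of the 2 groups share replicate numbers, but the labels do not say that a number pairs them. Deviations of same-numbered libraries correlated at 0.036, 0.041 and 0.189 across genes for numbers 1 to 3. Those of different numbers correlated at -0.162 to 0.148. The highest value was that of the number 3 libraries, which also lay on the same side of the second principal component. The values for numbers 1 and 2 lay within the range of different numbers, so pairing by number was not shown. With the replicate number as a block, 2 members rose and 2 fell, 621 genes passed, and 2 rose and 1 fell on the other lists. Counting error weighs most on Ctsh among the tested members, with 69 to 123 reads per library.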
